A study of Mus musculus with 6 samples.

Results

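Lysosomal and vacuolar ATPase (V-ATPase) genes were followed in the retina of Wfs1-KO mice. The 35 genes were picked by name out of 55376 genes in the count table, with earlier results of these data known. They comprise 19 lysosomal genes (4 membrane proteins, 6 proteases, 3 glycosidases with 1 thioesterase, 3 cofactors and lipid carriers, and 2 transcription factors of the TFEB family) and 16 V-ATPase genes (5 of the membrane sector V0, 9 of the cytosolic sector V1 and 2 accessory proteins). All 35 were present in the table and passed the filter on low counts, with 110 to 95049 counts per gene and retina.

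RNA-seq libraries came from the whole retina of 3 WT (wild type) and 3 Wfs1-KO (Wfs1-/- in the labels) animals, all of the C57x129 strain and 240 days old. The mutant mice carry a deletion of exon 8 of Wfs1 in every cell, so no cell type was targeted, and the retina was sequenced as a mixture of its cells. Levels are given as CPM, which are counts scaled to the same library size after correction by TMM factors, and edgeR's quasi-likelihood test was run for genotype across all genes. The p-values measure the spread between the retinas of a group, which the labels number as replicates.

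Total counts ranged from 17916885 to 101334381 per retina. Wfs1 was at 61.4 to 69.9 CPM in WT and at 0.9 to 11.5 CPM in Wfs1-KO retinas, so the table's counts followed the labels. Rod markers took 54727 to 76268 CPM in every retina. The library labelled Wfs1-KO replicate 2 stood apart: its mean correlation to the other 5 was 0.918, against 0.962 to 0.971 for each of the others. Its summed markers of microglia and macrophages, of pigment epithelium and melanocytes, and of blood were raised, though not every marker was. The values are given beside the genes below. Results are therefore also given on 5 retinas, without this library. WT replicate 3 had 4 counts of the X-inactivation transcript Xist, while each of the other 5 retinas had at least 10583, so this mouse differed in sex from the others.

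Lysosomes are acidic organelles in which proteases, glycosidases and lipases break down material delivered by endocytosis and autophagy. Their acidity is made by the V-ATPase, a rotary proton pump whose V1 sector hydrolyses ATP and whose V0 sector carries protons across the membrane. TFEB and TFE3 are transcription factors that switch on many of these genes together, by binding the CLEAR element, a palindrome around the E-box CACGTG. In the retina, lysosomal breakdown is known above all from the pigment epithelium, which digests shed photoreceptor tips, and from microglia, while V-ATPase also fills synaptic vesicles of neurons. Wolframin, the product of Wfs1, sits in the membrane of the endoplasmic reticulum.

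The CLEAR core is shown because it is the sequence that the family of TFEB reads. It was found in a minority of the promoters searched. Promoters of RefSeq (mouse assembly GRCm38.p6, 250 bases before to 50 bases after the annotated start) were found for 29 of the 35 genes and searched for the palindromes CACGTG and TCACGTGA, which read the same on both strands. Each TCACGTGA also holds a CACGTG. The longer palindrome was present in 6 of the 29 genes (20.7%), against 1.12% of 27025 genes with a promoter entry. The shorter palindrome was present in 10 of 29 (34.5%), against 8.09% of all genes. The 8 copies of TCACGTGA in the 6 promoters are printed from 5′ to 3′ on the strand of the gene, each within 30 bases and with the palindrome in capitals.
Mcoln1, chr8:3500462-3500491, plus strand: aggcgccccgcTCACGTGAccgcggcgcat
Ctsa, chr2:164833749-164833778, plus strand: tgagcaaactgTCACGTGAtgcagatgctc
Ctsa, chr2:164833766-164833795, plus strand: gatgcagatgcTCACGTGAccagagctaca
Ctsd, chr7:142387908-142387937, minus strand: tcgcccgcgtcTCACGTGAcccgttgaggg
Gla, chrX:134601215-134601244, minus strand: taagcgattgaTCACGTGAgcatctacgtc
Gla, chrX:134601182-134601211, minus strand: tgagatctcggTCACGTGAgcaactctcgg
Atp6v0d1, chr8:105566050-105566079, minus strand: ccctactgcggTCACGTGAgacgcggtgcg
Atp6v1a, chr16:44139373-44139402, minus strand: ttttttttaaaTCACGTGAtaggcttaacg

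The palindrome began 228 and 195 bases before the start in Gla, 132 in Atp6v1a, 99 in Ctsd, 46 in Mcoln1, 13 in Ctsa and 4 in Atp6v0d1, and the other copy in Ctsa began 4 bases after the start. By the exons of the count table, the copies in Mcoln1, Ctsa and Ctsd lay in an exon of the gene and those in Gla, Atp6v0d1 and Atp6v1a lay outside its exons. A match describes the letters of the window and is not a mapped binding site. The median log2 fold change between the genotypes was 0.03 for the 6 genes and 0.045 for the 23 others with a promoter entry. Without Wfs1-KO replicate 2 the medians were −0.10 and −0.08.

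None of the 35 genes changed between the genotypes at an adjusted p of 0.05, on 6 retinas or on 5. The Benjamini-Hochberg adjusted p of edgeR's quasi-likelihood test lay between 0.979 and 0.997 on 6 retinas and between 0.857 and 0.999 on 5 retinas. The same test called 2 of 18547 genes on 6 retinas (0.0108%) and 24 of 19178 on 5 retinas (0.125%). DESeq2 called 0 of the 35 on 6 retinas, while it called 0.19% of all genes with an adjusted p, and also 0 on 5 retinas. At an unadjusted p under 0.05, 0 of the 35 passed on 6 retinas against 2.81% of all genes, and 1, Gla, passed on 5 retinas against 5.19% of all genes. By the same measure DESeq2 gave 0 and 1 of the 35, and limma-voom on 6 retinas gave 0.

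The size of a difference that these retinas leave possible was within 2-fold for most of the genes. On 6 retinas the standard error of the log2 fold change had a median of 0.19 (0.15 to 0.54). The 95% interval stayed within a 2-fold change in either direction for 28 of the 35 and within 1.5-fold for 18. On 5 retinas the median standard error was 0.14, and the interval stayed within 2-fold for 35 of 35 and within 1.5-fold for 30. That fit leaves out the mutant retina that stood apart, so its intervals do not hold that retina's spread. Among WT retinas the 35 genes had a median coefficient of variation of 11.02%, against 16.7% over all genes tested. This measure depends on the number of reads, and the comparison was not matched for level. Of the 35, the steadiest was Atp6v1b2, the B subunit expressed in brain, at 0.98%, and the most variable was the β-glucuronidase gene Gusb, at 27.3%.

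**Figure D1:**
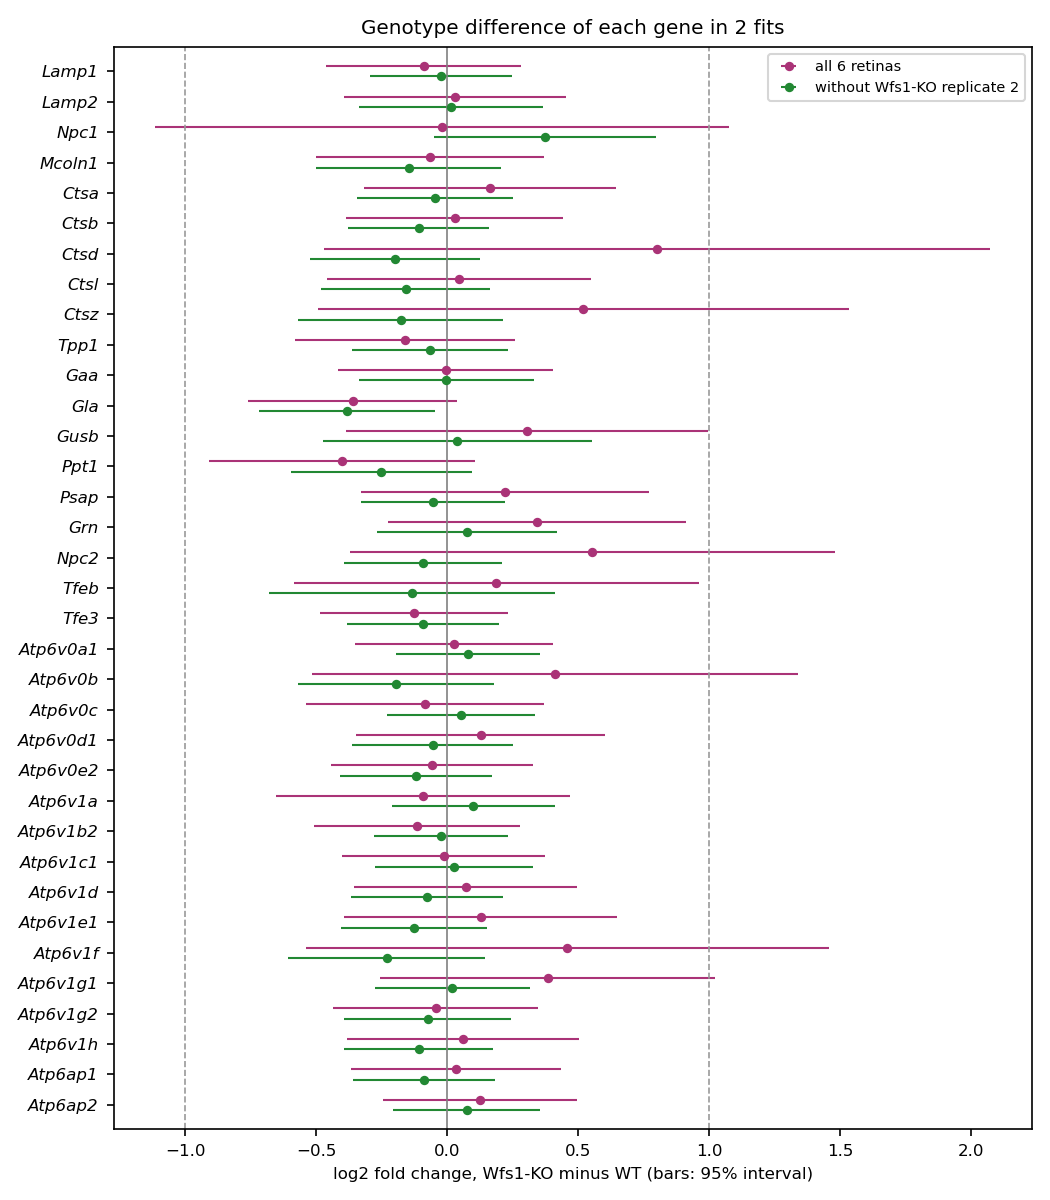
Log2 fold change, Wfs1-KO minus WT, of each of the 35 genes (horizontal axis; genes in rows by role) with its 95% interval, on 6 retinas and on 5 without Wfs1-KO replicate 2; dashed lines mark a 2-fold change. The interval of every gene spans 0 on 6 retinas, and on 5 retinas that of Gla alone lies below 0.

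Among the lysosomal membrane proteins, no member passed the test. Lamp1, a major glycoprotein of the lysosomal membrane, was at 203, 203 and 191 CPM in WT and at 196, 168 and 197 CPM in Wfs1-KO retinas. The groups overlapped, and the lowest retina was Wfs1-KO replicate 2. Lamp2, which also serves chaperone-mediated autophagy, was at 74.1, 104 and 82.0 CPM in WT and 84.9, 89.4 and 90.9 CPM in Wfs1-KO, inside the WT range. Mcoln1, the lysosomal calcium channel TRPML1, was at 62.0, 46.9 and 62.5 CPM in WT and 54.6, 60.1 and 48.9 CPM in Wfs1-KO, also inside that range.

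Npc1, which moves cholesterol out of the lysosome, had the widest interval among the membrane proteins. It was at 85.4, 98.6 and 138 CPM in WT and at 126, 39.0 and 153 CPM in Wfs1-KO retinas. The retina that stood apart was the lowest of the 6 and the other mutant retinas were in the upper part of the range or above it. The log2 fold change was −0.02 (SE 0.47) on 6 retinas and 0.37 (SE 0.19) on 5, the largest positive value of the 35 there (edgeR unadjusted p = 0.0786, adjusted p = 0.963).

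The 6 proteases had log2 fold changes with a median of 0.10 on 6 retinas and −0.14 on 5, and none passed the test. On 5 retinas 6 of 6 were below 0, while 49.9% of all genes were above 0. Per exon length (TPM, explained below), the mutant mean without replicate 2 exceeded the WT mean for Ctsa and Tpp1, not for the others. The aspartic protease Ctsd (ENSMUSG00000007891.16, chr7:142375911-142388038 in the mm10 coordinates of the table) had the largest positive value of the 35 genes. Its level was 213, 169 and 169 CPM in WT and 165, 639 and 156 CPM in Wfs1-KO retinas. A single mutant retina, replicate 2, was 3.67-fold above the mean of the other 5, and the other mutant retinas were below all 3 WT retinas. The log2 fold change was 0.80 (SE 0.54, edgeR adjusted p = 0.979) on 6 retinas and −0.20 (SE 0.15, adjusted p = 0.968) on 5. Of the exon bases of Ctsd, 31.5% are shared with another gene of the annotation, so part of its reads may not have been counted for it.

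The exopeptidase gene Ctsz was also highest in replicate 2, while the other mutant retinas overlapped with WT, with 49.7, 37.1 and 37.6 CPM in WT and 41.3, 105 and 32.4 CPM in Wfs1-KO. Ctsb, a cysteine protease with the most reads among the proteases, was at 589, 528 and 548 CPM in WT and at 520, 663 and 512 CPM in Wfs1-KO. Without replicate 2 both mutant values lay below WT, by a log2 fold change of −0.11 (SE 0.12). Ctsa and Ctsl, a carboxypeptidase and a cysteine protease, were likewise highest in that retina, at 115 and 172 CPM, and share 22.3% and 28.2% of their exon bases with other genes. Tpp1, the tripeptidyl peptidase lost in a form of neuronal ceroid lipofuscinosis, ran the other way, with 115, 141 and 130 CPM in WT and 119, 98.1 and 128 CPM in Wfs1-KO (log2 fold change −0.16, SE 0.18).

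Gla, the α-galactosidase whose loss causes Fabry disease, had the smallest p of the 35 both on 6 and on 5 retinas (ENSMUSG00000031266.6, chrX:134588149-134601125). Its level was 27.9, 33.5 and 27.7 CPM in WT and 21.7, 23.6 and 24.1 CPM in Wfs1-KO retinas. All 3 mutant retinas, replicate 2 included, were below all 3 WT retinas, as for 3.94% of all genes tested. The log2 fold change was −0.36 (SE 0.17, 95% interval −0.76 to 0.04, edgeR unadjusted p = 0.0683, adjusted p = 0.979) on 6 retinas. On 5 retinas it was −0.38 (SE 0.15, 95% interval −0.72 to −0.05, unadjusted p = 0.0293, adjusted p = 0.857), which did not pass the correction over all genes. TPM are counts per exon length scaled to the same total in every retina. Wfs1-KO was also lower without overlap in TPM, as for 2.95% of all genes tested. The levels were 24.0, 30.4 and 25.3 TPM in WT and 20.7, 14.5 and 23.0 TPM in Wfs1-KO. Gla has no exon overlap with another gene in the table, and its counts were between 488, in WT replicate 3, and 2235.

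Ppt1, the palmitoyl-protein thioesterase lost in infantile ceroid lipofuscinosis, had the largest negative log2 fold change on 6 retinas. It was at 79.8, 97.1 and 112 CPM in WT and 78.7, 56.6 and 83.0 CPM in Wfs1-KO retinas. The groups overlapped, because Wfs1-KO replicate 3 lay above WT replicate 1. The log2 fold change was −0.40 (SE 0.22, edgeR unadjusted p = 0.104) on 6 retinas and −0.25 (SE 0.16, unadjusted p = 0.133) on 5. Gaa, the acid α-glucosidase lost in Pompe disease, lay at 140 to 186 CPM in WT and at 166 to 170 CPM in Wfs1-KO. Gusb, among the lowest of the 35 genes, lay at 6.24 to 11.0 CPM in WT and at 9.27, 14.4 and 9.15 CPM in Wfs1-KO.

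The 3 genes of cofactors and lipid carriers were each highest in Wfs1-KO replicate 2. Npc2, the soluble cholesterol carrier that hands its load to Npc1, was at 54.8, 48.9 and 46.4 CPM in WT and 47.5, 126 and 46.8 CPM in Wfs1-KO retinas. Its log2 fold change was 0.55 (SE 0.40) on 6 retinas and −0.09 (SE 0.14) on 5. Npc1 and Npc2 therefore lay at opposite ends in that retina, at 0.324-fold and 2.58-fold of the mean of the other 5. Psap, the precursor of the saposins that activate sphingolipid hydrolases, had the most reads of the 35 genes, with 1024, 858 and 951 CPM in WT and 922, 1476 and 903 CPM in Wfs1-KO. Grn, which encodes progranulin, was at 41.5, 33.3 and 35.1 CPM in WT and 42.0, 61.9 and 35.5 CPM in Wfs1-KO.

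Of the transcription factors, Tfeb was at 13.9, 8.57 and 13.2 CPM in WT and at 12.9, 18.9 and 8.72 CPM in Wfs1-KO retinas. The log2 fold change of Tfeb was 0.19 (SE 0.33) on 6 retinas and −0.13 (SE 0.25) on 5. Tfe3 was at 50.1, 45.10 and 48.0 CPM in WT and at 44.8, 41.4 and 45.07 CPM in Wfs1-KO. The mutant retinas were all below WT, but the gap between the nearest retinas was 45.10 against 45.07 CPM, and the log2 fold change was −0.13 (SE 0.15). TFEB and TFE3 are regulated mainly by phosphorylation and entry into the nucleus, which transcript levels do not measure.

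**Figure D2:**
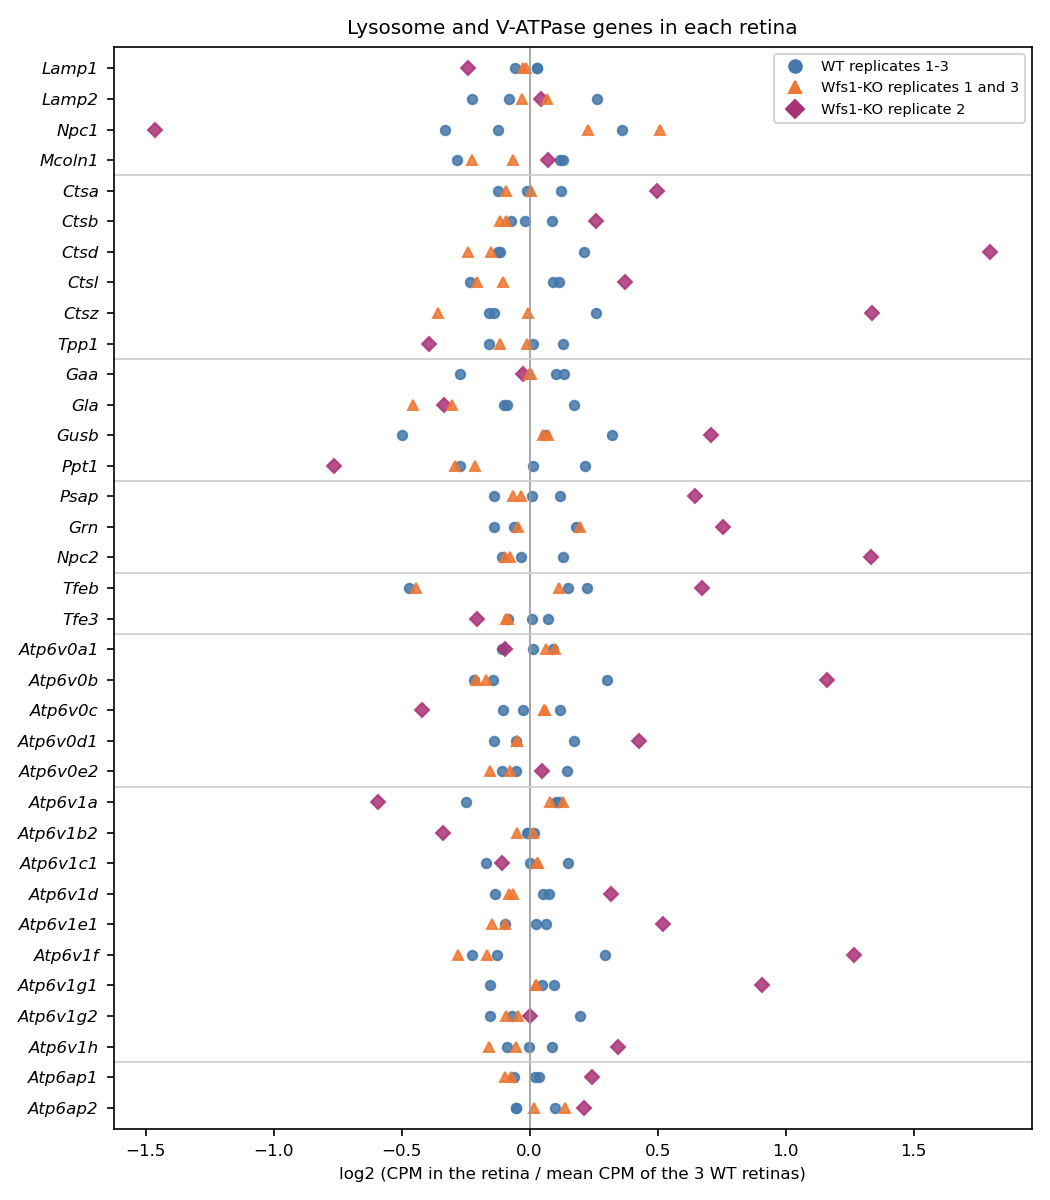
Log2 of the CPM of each gene in each retina over its mean in the 3 WT retinas (horizontal axis; genes in rows, separated by role). WT and Wfs1-KO replicates 1 and 3 lie close to 0, and Wfs1-KO replicate 2 lies far to the right for Ctsd, Ctsz, Npc2, Atp6v0b and Atp6v1f and far to the left for Npc1 and Ppt1.

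Among the V-ATPase genes, all 16 were expressed and none passed the test. The log2 fold changes ran from −0.12 to 0.46 on 6 retinas and from −0.23 to 0.10 on 5. The 5 V0 genes had a median of 0.03 on 6 retinas and −0.06 on 5, the 9 V1 genes 0.06 and −0.08, and the 2 accessory genes 0.08 and −0.01. The median over all genes tested was 0.02 on 6 retinas and −0.0004 on 5.

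In V0, Atp6v0c encodes the proteolipid of the proton-carrying ring. It was at 313, 269 and 283 CPM in WT and 301, 215 and 300 CPM in Wfs1-KO retinas (log2 fold change −0.09, SE 0.19). Reads of processed copies of Atp6v0c could have been split from it, although the 2 pseudogene rows named for it in the table held at most 3 and 76 counts. Atp6v0a1, the a subunit that is typical of neurons, was at 356, 328 and 376 CPM in WT and 370, 330 and 379 CPM in Wfs1-KO, a log2 fold change of 0.03 (SE 0.16) on 6 retinas and 0.08 (SE 0.13) on 5. Atp6v0b, another proteolipid, was at 205, 143 and 151 CPM in WT and 148, 372 and 144 CPM in Wfs1-KO, with the high value in replicate 2. Atp6v0d1 lay at 176 to 219 CPM in WT and at 187, 261 and 187 CPM in Wfs1-KO, and Atp6v0e2 at 399 to 476 and at 408, 444 and 386 CPM.

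In V1, the catalytic subunit gene Atp6v1a was at 334, 430 and 427 CPM in WT and 419, 263 and 434 CPM in Wfs1-KO retinas. Its partner in the ATP-hydrolysing ring, Atp6v1b2, was at 613, 602 and 604 CPM in WT and 586, 480 and 612 CPM in Wfs1-KO. Both were lowest in replicate 2 and otherwise within or close to the WT range, with log2 fold changes on 5 retinas of 0.10 (SE 0.14) and −0.02 (SE 0.12). Atp6v1f, of the central shaft, showed the opposite order, with 91.6, 68.5 and 64.0 CPM in WT and 61.5, 180 and 66.6 CPM in Wfs1-KO, a log2 fold change of 0.46 (SE 0.43) on 6 retinas and −0.23 (SE 0.17) on 5. Atp6v1e1, of the outer stalks, was at 213, 207 and 191 CPM in WT and 184, 292 and 190 CPM in Wfs1-KO, so that without replicate 2 the mutant values lay just below WT (log2 fold change −0.13, SE 0.13). Atp6v1g1, the other stalk gene that is expressed in most tissues, was at 132, 128 and 111 CPM in WT and 126, 231 and 125 CPM in Wfs1-KO. Its neuronal counterpart Atp6v1g2 was at 150, 124 and 117 CPM in WT and 126, 131 and 123 CPM in Wfs1-KO, inside the WT range. Atp6v1c1, Atp6v1d and Atp6v1h lay between 99.3 and 168 CPM in the 6 retinas, with log2 fold changes of −0.01, 0.07 and 0.06.

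Both accessory genes are X-linked. Atp6ap1, which guides assembly of the pump, was at 274, 271 and 255 CPM in WT and 249, 315 and 253 CPM in Wfs1-KO retinas. Atp6ap2, also known as the prorenin receptor, was at 213, 237 and 213 CPM in WT and 224, 256 and 244 CPM in Wfs1-KO. Their log2 fold changes were 0.03 (SE 0.17) and 0.12 (SE 0.16).

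Because WT replicate 3 differed in sex, the 5 X-linked genes were also fitted without it. The log2 fold change was then −0.03 for Lamp2, −0.43 for Gla, −0.14 for Tfe3, −0.02 for Atp6ap1 and 0.08 for Atp6ap2. With Wfs1-KO replicate 2 left out as well, a choice made after seeing the data, the values were −0.03, −0.43, −0.09, −0.12 and 0.05. On these 4 retinas 2 of the 35 genes had an unadjusted p under 0.05 against 7.64% of all genes tested, and 0 passed an adjusted p of 0.05 against 0.083%. They were Gla (edgeR unadjusted p = 0.0334, adjusted p = 0.618) and Npc1, which is not X-linked, at a log2 fold change of 0.59 (SE 0.16, unadjusted p = 0.00715, adjusted p = 0.498). The WT retina left out was the highest WT retina for Npc1, at 138 CPM. For Gla, the WT values without that mouse were 27.9 and 33.5 CPM, above all mutant values. This could not come out otherwise, since all 3 WT retinas were above all 3 mutant retinas. The part of sex in the level of Gla was not tested.

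Levels were compared between the V-ATPase genes per exon length, as TPM in the WT retinas (mean ± SD, n = 3). The highest were Atp6v0e2 at 678 ± 41.3 TPM, Atp6v0c at 648 ± 32.1 TPM and Atp6v1b2 at 608 ± 14.5 TPM, where neighbours overlapped in their ranges and all 3 lay above the range of every other V-ATPase gene. Atp6v0b followed at 469 ± 78.8 TPM and Atp6v1e1 at 439 ± 17.4 TPM, which were not separated from each other. The catalytic subunit gene Atp6v1a was at 265 ± 44.2 TPM, below its partner Atp6v1b2. The lowest were Atp6v1h at 155 ± 10.7 TPM and Atp6v1d at 84.0 ± 5.26 TPM, each with a range apart from its neighbours. Between rank 8, Atp6v1g1 at 307 ± 22.1 TPM, and rank 14, Atp6v1g2 at 197 ± 18.8 TPM, the WT ranges of neighbours overlapped. Exon length is the merged length over all transcripts of a gene, so genes with long, rarely used exons come out low.

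**Figure D3:**
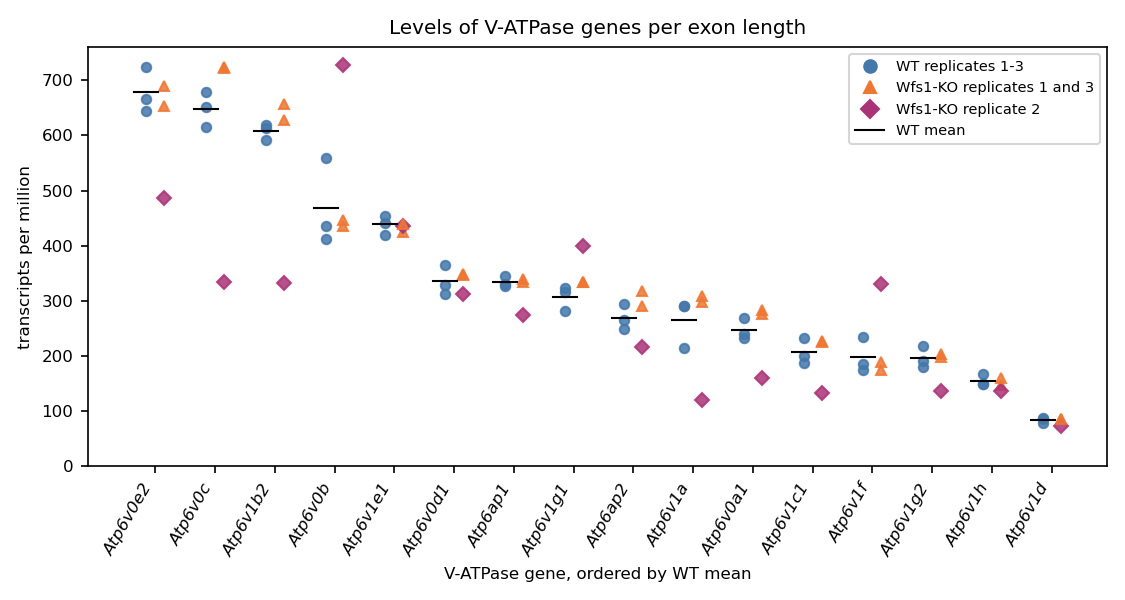
TPM of the 16 V-ATPase genes in each retina (vertical axis, linear from 0; genes along the horizontal axis in the order of the WT mean, marked by a bar). WT retinas and Wfs1-KO replicates 1 and 3 keep close together, while Wfs1-KO replicate 2 is below them for most genes and above them for Atp6v0b, Atp6v1f and Atp6v1g1.

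Among the lysosomal genes the order of WT levels per exon length was led by Psap at 973 ± 63.3 TPM, followed by Ctsb at 331 ± 9.47 TPM, Lamp1 at 253 ± 8.22 TPM and Ctsd at 244 ± 24.99 TPM. Lamp1 and Ctsd were not separated in their WT ranges. Within each role, the lowest means were Lamp2 at 48.8 ± 9.78 TPM for the membrane proteins, Ctsl at 60.7 ± 6.93 TPM for the proteases, Gusb at 6.60 ± 1.63 TPM for the glycosidases and Npc2 at 42.8 ± 2.31 TPM for the carriers. Lamp2, Ctsl and Npc2 were not separated from the gene next above them, since in WT replicate 2 they lay above Npc1, Ctsa and Grn. Gaa led the glycosidases at 117 ± 16.8 TPM. Tfe3, at 37.3 ± 1.30 TPM, was above Tfeb, at 8.35 ± 1.91 TPM, in all 3 WT retinas.

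Counting genes whose genotypes did not overlap gave 2 of the 35 on 6 retinas, Gla and Tfe3, both lower in Wfs1-KO, against 8.96% of all genes tested in either direction and 3.94% lower. On 5 retinas the count was 6, namely Gla, Tfe3, Ctsb, Ctsd, Atp6v1e1 and Atp6ap1, again all lower in Wfs1-KO, against 22.4% of all genes in either direction and 11.0% lower. This direction depended on the scale. In TPM, on 5 retinas, 6 genes were higher in Wfs1-KO without overlap (Lamp1, Atp6v0a1, Atp6v0c, Atp6v1a, Atp6v1b2 and Atp6v1g1) and 1, Gla, was lower, against 20.6% and 5.41% of all genes. In TPM on 6 retinas 1 gene was higher, Atp6v1g1, against 4.87% of all genes, and 1 was lower, Gla, against 2.95%. Gla was the member that did not overlap and was lower on both scales and both sets of retinas. In TPM, 1 gene is 2.86% of the 35, near or below the shares of 2.95% and 5.41%, so the count does not set Gla apart.

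The scales also differed over all genes. On 5 retinas, the median log2 ratio of the mean TPM, Wfs1-KO to WT, was 0.10 over all genes tested and 0.03 over the 35 genes, which is −0.07 relative to all genes. The fitted log2 fold changes on 5 retinas had a median of −0.08 over the 35 genes, with 25 of 35 below 0, against 49.9% of all genes above 0. On 6 retinas 21 of 35 were above 0, with a median of 0.03, against 52.8% of all genes above 0. The median over the 35 genes in each retina, as log2 CPM over the WT mean, was 0.10, −0.05 and −0.06 in WT and −0.04, 0.24 and −0.07 in Wfs1-KO, so that the mutant retinas other than replicate 2 were within or just below the spread of WT.

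Replicate 2 was the main source of spread among the mutant retinas. In CPM it was the highest of the 6 retinas for 19 of the 35 genes and the lowest for 8, together 27, against 75.3% of all genes tested, of which 38.4% had it highest and 36.8% lowest. It was over 1.5-fold above the mean of the other 5 for 10 genes: Ctsd (3.67-fold), Ctsz (2.64), Npc2 (2.58), Atp6v1f (2.55), Atp6v0b (2.35), Atp6v1g1 (1.86), Tfeb (1.66), Grn (1.65), Gusb (1.60) and Psap (1.58). It was over 1.5-fold below for 3: Npc1 (0.324-fold), Ppt1 (0.628) and Atp6v1a (0.644). Over all genes tested, 54.2% lay beyond 1.5-fold in either direction. In TPM the balance turned, and this retina was highest for 7 of the 35 genes and lowest for 21. The balance turned over all genes as well. Of 18547 genes tested, this retina was highest in TPM for 3624 and lowest for 10720 (57.8%), so the turn was not particular to the 35 genes.

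Subunits of the same pump did not move together in that retina. Atp6v0b, Atp6v1f and Atp6v1g1 were high and Atp6v1a, Atp6v1b2 and Atp6v0c were low. The genes with replicate 2 highest had a median exon length of 2324 bases, and those with it lowest 3516 bases. Over the 35 genes the Spearman correlation between exon length and the deviation of replicate 2 was −0.34, and over 18357 tested genes −0.41. WT replicate 1, which did not stand apart, had −0.40 and −0.38 by the same measure. The correlation is across genes of 1 library and is a description, and the part of length in these levels was not tested further.

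Summed over the 19 lysosomal genes, the level was 2817 to 3108 CPM in WT and 2852, 4133 and 2841 CPM in Wfs1-KO retinas. Summed over the 16 V-ATPase genes it was 3712.5 to 3975 CPM in WT and 3754, 4198.5 and 3815 CPM in Wfs1-KO. Replicate 2 was therefore 1.39-fold of the WT mean for the lysosomal sum and 1.10-fold for the V-ATPase sum, while in TPM the ratios were 1.04 and 0.847. Most of the rise of the lysosomal sum in CPM came from Psap and Ctsd. Psap was at 1476 CPM in replicate 2 against a WT mean of 945 CPM, and Ctsd at 639 against 184 CPM. The sums in the other mutant retinas lay within the WT range.

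In that retina the summed markers of microglia and macrophages, of pigment epithelium and melanocytes, of blood and of lens moved more than these sums. The 15 markers of microglia and macrophages summed to 59.3 to 68.5 CPM in WT and to 84.7, 392 and 55.7 CPM in Wfs1-KO, and 14 of the 15 were highest in replicate 2. The 13 markers of pigment epithelium and melanocytes summed to 122 to 177 CPM in WT and to 96.4, 513 and 57.0 CPM in Wfs1-KO. Of the 13, 10 were highest in replicate 2, where the largest were Ttr at 234, Rgr at 105 and Dct at 92.8 CPM. Rpe65 and Best1, at 20.8 and 1.14 CPM in replicate 2, lay within the WT range, and Lrat, at 4.59 CPM, lay below it. On 5 retinas the median log2 fold change of this list was −0.76. Of the 13, 7 were lower in Wfs1-KO at an edgeR unadjusted p under 0.05, against 5.19% of all genes in either direction. Lrat was the 1 that passed the correction (edgeR adjusted p = 0.0467), against 0.125% of all genes. The part of these lower markers in the lower values of the lysosomal and V-ATPase genes on 5 retinas was not tested. The 7 blood markers, 2 of which were at 0 in some retina, summed to 12.3 to 41.3 CPM in WT and to 22.8, 481 and 20.1 CPM in Wfs1-KO. In replicate 2 the summed rod markers were at 0.746-fold of the WT mean, Mueller glia markers at 1.30-fold and ganglion cell markers at 1.19-fold. In TPM these ratios were 0.566, 1.12 and 1.01. Markers within these lists were split. Replicate 2 was highest for 3 and lowest for 4 of 9 rod markers. For Mueller glia it was 4 and 4 of 9, and for ganglion cells 5 and 2 of 9. Apoe, of the Mueller glia list, was at 3627 CPM there against 617 to 972 CPM in WT. Glul, of the same list, was at 1949 CPM against 2967 to 3245 CPM. The 12 lens markers, 4 of them at 0 in some retina, were at 4.82-fold. The part of these cells in the high Ctsd, Ctsz, Npc2 and Grn of that retina was not tested. In whole retina, more cells of a type and more RNA per cell cannot be told apart.

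**Figure D4:**
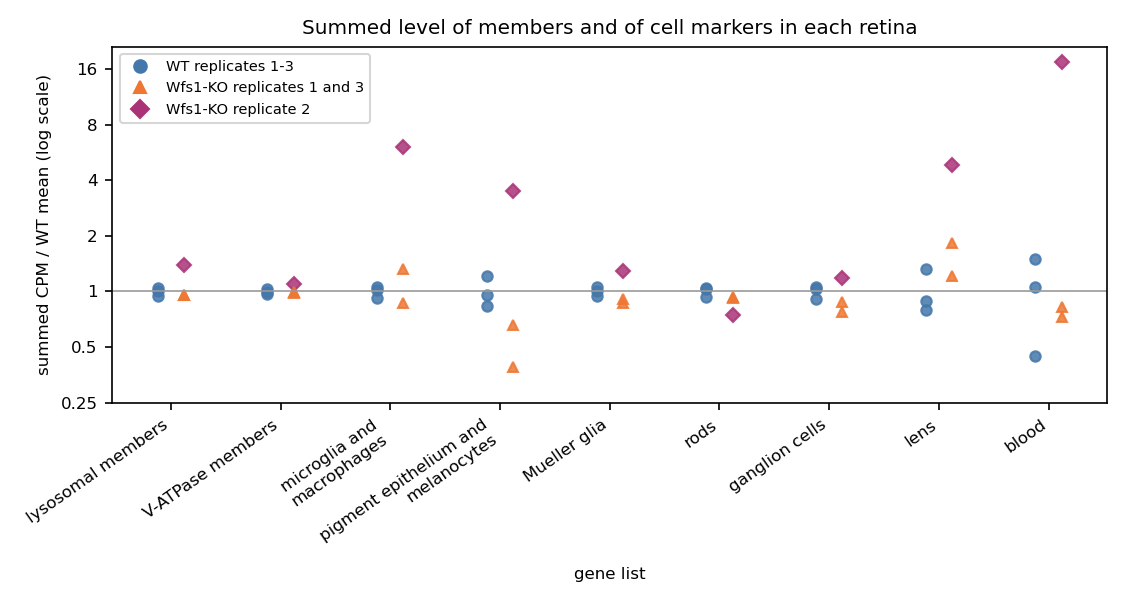
Summed CPM of the 19 lysosomal and 16 V-ATPase genes and of 7 lists of cell markers in each retina, divided by the mean of the 3 WT retinas (vertical axis, log scale). The lysosomal and V-ATPase sums of Wfs1-KO replicate 2 are 1.39 and 1.10 times the WT mean. Its marker sums are 6.08 times for microglia and macrophages, 3.52 times for pigment epithelium and melanocytes and 17.4 times for blood.

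Lysosomal genes outside the 35 gave the same picture at the threshold. Of 42 further lysosomal genes, all tested, 0 passed an adjusted p of 0.05 in either direction on 6 or on 5 retinas. Their median log2 fold change was 0.04 on 6 retinas and −0.03 on 5. At an unadjusted p under 0.05, 1 of the 42 was higher in Wfs1-KO and 0 were lower, on 6 retinas and also on 5. The shares of all genes, in either direction, were 2.81% on 6 retinas and 5.19% on 5. The 1 gene was Slc17a5, the sialic acid exporter of the lysosome. It was at 9.47, 11.5 and 9.08 CPM in WT and 13.1, 17.4 and 13.9 CPM in Wfs1-KO retinas. All 3 mutant retinas were above all 3 WT retinas, and 8.96% of all genes tested had no overlap in either direction. The log2 fold change of Slc17a5 was 0.56 (SE 0.21, edgeR unadjusted p = 0.0278, adjusted p = 0.979) on 6 retinas and 0.42 (SE 0.18, unadjusted p = 0.0351, adjusted p = 0.880) on 5.

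On 6 retinas the next smallest p-values of that list belonged to cathepsin genes. Ctss, a cathepsin of microglia and other phagocytes, was at 16.2, 16.8 and 14.1 CPM in WT and 23.0, 73.5 and 15.1 CPM in Wfs1-KO, highest in replicate 2. Ctsh was at 15.4, 13.1 and 18.1 CPM in WT and 18.8, 86.1 and 12.3 CPM in Wfs1-KO. Ctsc was at 10.03, 13.2 and 10.2 CPM in WT and 16.7, 22.4 and 11.9 CPM in Wfs1-KO. Without replicate 2 their log2 fold changes were 0.27 (SE 0.20) for Ctss, 0.004 (SE 0.21) for Ctsh and 0.36 (SE 0.20) for Ctsc.

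Of 17 further genes of V-ATPase isoforms and regulators, 12 passed the filter on low counts, and 0 passed the test adjusted or unadjusted. Tcirg1, the a3 subunit known from osteoclasts and phagocytes, was at 7.11, 4.46 and 5.22 CPM in WT and 6.59, 12.01 and 5.52 CPM in Wfs1-KO. The kidney isoforms Atp6v0a4 and Atp6v1b1 were below 2 CPM in all 6 retinas. Rogdi, a part of the complex that reassembles the pump, was at 102, 74.3 and 80.1 CPM in WT and 84.5, 154 and 77.1 CPM in Wfs1-KO.

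Of 24 genes for sorting to the lysosome and for the control of TFEB, 23 were tested and 0 passed, adjusted or unadjusted, with a median log2 fold change of −0.11 on 6 retinas and −0.04 on 5. M6pr, a mannose 6-phosphate receptor that delivers hydrolases, had a log2 fold change of −0.18 (SE 0.16) on 6 retinas and −0.12 (SE 0.13) on 5. The small GTPase genes Rragb and Rragd, which recruit mTORC1 to the lysosome, had −0.30 (SE 0.21) and −0.28 (SE 0.24) on 6 retinas, and Lamtor2, of their anchor, had 0.56 (SE 0.48). Replicate 2 was the lowest retina for Rragb and Rragd, at 42.0 and 45.2 CPM, and the highest for Lamtor2, at 116 CPM.

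All 25 autophagy genes were tested and 0 passed, adjusted or unadjusted, with medians of −0.10 on 6 retinas and −0.08 on 5. Becn1, of the complex that starts the autophagosome, was at 69.2, 63.2 and 61.0 CPM in WT and 60.7, 32.8 and 58.1 CPM in Wfs1-KO. Atg12, which is joined to Atg5 during growth of the membrane, was at 73.6, 80.9 and 71.4 CPM in WT and 65.3, 57.2 and 66.0 CPM in Wfs1-KO, and its partner Atg16l1 was at 75.7, 67.4 and 60.2 CPM in WT and 56.2, 57.5 and 58.7 CPM in Wfs1-KO. In these 3 genes, named for their small p, the mutant retinas were all below WT in CPM, as for 3.94% of all genes tested. Their order in TPM was not examined. The log2 fold changes were −0.35 (SE 0.25), −0.26 (SE 0.16) and −0.24 (SE 0.16). Vps11, of the tether that fuses vesicles with lysosomes, was at 98.4, 80.9 and 98.1 CPM in WT and 83.5, 69.2 and 82.8 CPM in Wfs1-KO, where the groups overlapped.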

How the data were processed

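RNA-seq counts of 3 WT and 3 Wfs1-KO retinas were analysed. The sources differ on sample preparation: the labels name Trizol and a C57x129 strain, the published methods a column kit and C57BL/6 J. Per the submitters' processing notes, the authors used Trimmomatic 0.39, STAR 2.5.3a and featureCounts 1.6.4 on mm10, and they deposited counts of reads on exons per gene, not normalized. Columns were matched to samples by genotype letter and replicate number (C read as control, W as Wfs1). This reading is an assumption. Wfs1 was low in every column so read as Wfs1-KO. 2 count columns matched no sample and were not used.

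The published methods compare genotypes with DESeq2 alone. Here edgeR 4.0.16 (R 4.3.3; TMM, filterByExpr, quasi-likelihood, genotype only) was the main test, with Benjamini-Hochberg adjustment over all genes tested, and DESeq2 1.42.0 and limma 3.58.1 (voom) were alternatives. The fit was tested on simulated data. The standard error is the absolute log2 fold change divided by the square root of F, and intervals use the t distribution of the fit. CPM used TMM-scaled library sizes, and TPM were computed from the counts and the exon length in the table. Total counts set a floor of 3 counts, 0.0291 to 0.17 CPM per retina, covering counting error only. No 2 libraries held identical counts.

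The members, the gene and marker lists and the tests were chosen with earlier results of these data known. Full values were given for members with an unadjusted p under 0.05 in either fit, members without overlap, the 3 largest rises and falls in each fit, the highest and lowest per role and the X-linked members. Of other lists, up to 4 genes with the smallest p were named. Set tests, and p-values over the members as a list, were not used. TPM as a second scale for the retina order was added after seeing the data. Other settings were upper-quartile and RLE factors, other low-count filters, a replicate block and each retina left out in turn.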

Additional observations from a re-analysis of the deposited data

How the results depend on the processing

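The count of the 35 genes called at an adjusted p of 0.05 was 0 under each of the 14 other settings. Over all genes, edgeR called 2 on 6 retinas, DESeq2 47, edgeR without a low-count filter 9, edgeR with the replicate block 1 and DESeq2 without Wfs1-KO replicate 2 94, and leaving out 1 retina at a time gave 0 to 24. The members with an unadjusted p under 0.05 numbered 1 with DESeq2 without Wfs1-KO replicate 2 and 0 to 1 with 1 retina left out. The members without overlap numbered 1 with upper-quartile factors, with no filter and with at least 10 counts in every retina, since Tfe3 rests on a gap of 45.10 against 45.07 CPM, and 3 to 6 with 1 retina left out, where fewer retinas are compared. The median log2 fold change of the 35 genes ran from −0.08 to 0.09 with 1 retina left out, within the spread of 0.14 (SD) of the retina medians. Same-numbered retinas come from different mice. Their deviations from the mean of their group correlated by −0.23, −0.11 and 0.08, which shows no pairing by number. Deviations within a group of 3 retinas depend on each other, so these values cannot exclude a shared preparation.

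Directions that turned belong to log2 fold changes that did not pass the test. Gaa was 0.004 with voom and with the replicate block and 0.009 with upper-quartile factors or at least 10 counts, Atp6v1c1 was 0.002 under these last settings, and Ctsb was −0.006 without a filter. Leaving out Wfs1-KO replicate 2 turned 19 of the 35 with edgeR. With DESeq2 the 19 values were Npc1 0.37, Ctsa −0.048, Ctsb −0.11, Ctsd −0.20, Ctsl −0.16, Ctsz −0.18, Psap −0.056, Npc2 −0.093, Tfeb −0.14, Atp6v0b −0.20, Atp6v0c 0.051, Atp6v0d1 −0.057, Atp6v1a 0.099, Atp6v1c1 0.025, Atp6v1d −0.079, Atp6v1e1 −0.13, Atp6v1f −0.23, Atp6v1h −0.11, Atp6ap1 −0.091. With 1 retina left out at a time, the values ran as follows: Lamp2 −0.075 to 0.18, Npc1 −0.38 to 0.37, Mcoln1 −0.19 to 0.002, Ctsa −0.048 to 0.27, Ctsb −0.11 to 0.09, Ctsd −0.20 to 1.13, Ctsl −0.16 to 0.15, Ctsz −0.18 to 0.81, Gaa −0.13 to 0.047, Psap −0.055 to 0.34, Npc2 −0.093 to 0.79, Tfeb −0.13 to 0.42, Atp6v0a1 −0.028 to 0.078, Atp6v0b −0.20 to 0.64, Atp6v0c −0.17 to 0.052, Atp6v0d1 −0.057 to 0.22, Atp6v0e2 −0.13 to 0.019, Atp6v1a −0.22 to 0.099, Atp6v1c1 −0.11 to 0.066, Atp6v1d −0.078 to 0.14, Atp6v1e1 −0.13 to 0.24, Atp6v1f −0.23 to 0.72, Atp6v1g2 −0.13 to 0.064, Atp6v1h −0.11 to 0.16, Atp6ap1 −0.091 to 0.09. Leaving out WT replicate 3, the shallowest library, turned 7 directions, and no other retina but Wfs1-KO replicate 2 turned more than 4. Gla stayed below 0 under each setting, from −0.43 to −0.27 with 1 retina left out. Depth limits Gusb and Tfeb most, the members with the fewest reads.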
